A study of Mus musculus with 12 samples.

Results

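The genes described here are 9 core genes of the Hedgehog pathway: the ligands Shh, Ihh and Dhh, the receptor Ptch1, the signal transducer Smo, the inhibitor Sufu, and the transcription factors Gli1, Gli2 and Gli3. They were taken from the expression table by gene symbol, and 9 of 25899 rows of the table matched, 1 for each gene. RNA was sequenced from the apical, root-forming part of first mandibular molar germs of C57BL/6 mice at postnatal day 4. There were 6 libraries from Nfic-/- mice, which lack both working copies of the transcription factor gene Nfic, and 6 from littermates with the Nfic+/- genotype. The control group therefore also lacked 1 copy of Nfic, and no wild-type library was compared. The labels do not name the targeted allele or say whether germs were pooled. The title of the series places Nfic and Hedgehog signalling in 1 cascade of root development, and the comparison asks whether the Hedgehog genes differed when the remaining copy was lost.

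Hedgehog ligands are secreted, lipid-modified proteins that bind Patched receptors. Without ligand, Ptch1 holds Smo inactive, and Sufu and protein kinase A keep the Gli proteins in check. With ligand, Smo becomes active at the primary cilium, and Gli2 and Gli3 switch from repression to activation of target genes. Gli1 and Ptch1 are themselves targets, so that their transcripts are the usual readouts of the pathway. In the tooth Shh comes from the dental epithelium, and the neighbouring dental mesenchyme is a tissue that responds with Gli1 and Ptch1. Which tissue held these transcripts was not tested here.

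Depth read back from the values was 70.2 to 96.4 M reads per library. RPKM are reads scaled by gene length and by depth, so that levels of different genes can be compared. Nfic itself was at 16.8 ± 4.42 RPKM in the Nfic+/- and 11.4 ± 3.02 RPKM in the Nfic-/- libraries (SD, n = 6 each), with 3 Nfic-/- libraries below the lowest Nfic+/- library and the others within their range (2-sided exact permutation p = 0.0303). In the limma test across all genes Nfic did not pass (difference -0.52 in log2(RPKM + 1), adjusted p = 0.934). The exact permutation p was between 0.0519 and 0.0628 when Nfic+/- replicate 6 or 10 or Nfic-/- replicate 5 or 6 was left out (a change in the Nfic level of -0.41 to -0.49). Transcript thus remained in the Nfic-/- libraries, and whether it lay outside the targeted sequence was not tested. Libraries 8 and 9 of both genotypes stood apart: 15 marker genes of intestinal epithelium summed to 144 to 188 RPKM there and to 0.344 to 0.748 RPKM in the other 8 libraries. Sample-sheet numbers recur among the column names, so there were at least 2 sheets. Replicates 5 to 7 and replicates 8 to 10 were taken as the sets, although no label says so. Markers of enamel epithelium, 7 genes, summed to 36034 to 142043 RPKM in Nfic+/- and to 52825 to 140049 RPKM in Nfic-/- libraries. Markers of dental epithelium and mesenchyme were both present in every library. All 12 epithelial markers stood higher in the Nfic-/- libraries (median difference 0.29 in log2(RPKM + 1)) and 11 of 12 mesenchymal markers stood lower (median -0.58), but 0 of these 24 passed the test across all genes. In bulk RNA, fewer cells of a type and less RNA per cell cannot be told apart.

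Shh was the most abundant transcript among the 9 genes, and Ihh the least. Averaged over the 12 libraries, Shh was at 132 RPKM, Ptch1 at 46.4, Smo at 41.7, Gli1 at 19.4, Gli3 at 5.87, Gli2 at 4.57 and Sufu at 3.96. Dhh and Ihh were at 0.153 and 0.136 RPKM. Shh lay above Ptch1, Smo above Gli1, Gli1 above Gli3 and Sufu above Dhh in 12 of 12 libraries. For these 4 steps the ranges over all libraries did not overlap. For the other neighbours in this order the ranges over libraries overlapped. Within libraries Gli3 was above Gli2 in 10 of 12, Gli2 above Sufu in 9, and Ptch1 above Smo and Dhh above Ihh in 8 each.

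**Figure D1:**
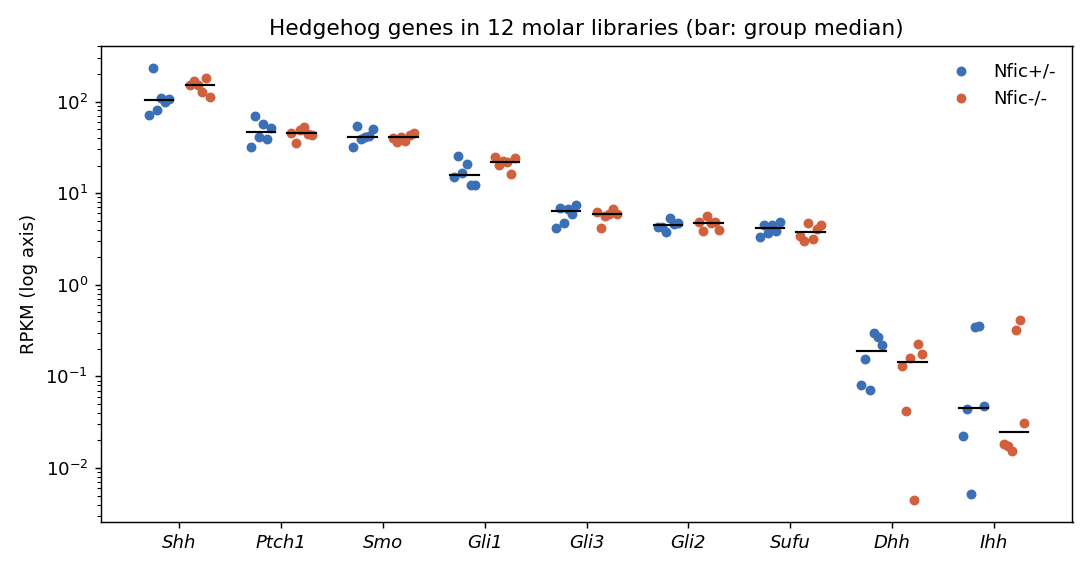
Levels of the 9 Hedgehog genes in RPKM on a log axis, with 1 point per library, Nfic+/- in blue and Nfic-/- in orange, and a black bar at the median of each group of 6. The order of genes from Shh to Sufu was alike in both genotypes, and the Dhh and Ihh points lie below 1 RPKM.

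Promoter windows from RefSeq (GRCm38.p6), from 250 bases before to 50 bases after a transcription start, were found for 7 of the 9 genes, not for Shh and Gli1, and 6 short motifs were searched in them on both strands. The Gli binding sequence GACCACCCA was in 0 of these 7 windows and in 0.253% of all 32851 windows. The palindromic nuclear factor I sequence, TTGGC and GCCAA spaced by 5 bases, was in 0 of 7 and in 0.0365% of all. Its left arm with 1 more base, TTGGCA, was in 0 of 7 (14.1% of all windows), the cyclic AMP element TGACGTCA in 0 of 7 (1.79%) and CCAAT in 1 of 7, that of Sufu (37.4%). These counts cover only these letters in these windows, 1 for each gene. A GC box, GGGCGG, was in 6 of the 7 windows and in 35.7% of all windows. The match nearest to the start is shown for the 4 genes above 1 RPKM that had one, on the strand of the gene, with the GC box or its reverse complement in capitals.
Ptch1: gcggcgcgGGGCGGggacgtct
Gli2: acgcggcgGGGCGGgcaagcta
Gli3: gggaaggaGGGCGGggaggagg
Sufu: ctgacgccCCGCCCcttggagc
These lie at chr13:63565813-63565834 (minus strand), chr1:119053763-119053784 (minus strand), chr13:15463623-15463644 (plus strand) and chr19:46396878-46396899 (plus strand). Their GC boxes begin at positions -91, -157, -92 and -10, where -1 is the last base before the start. The Ptch1 and Gli3 windows lie inside the annotated genes (63508328 to 63573598 and 15463235 to 15730026). The outermost annotated starts of these genes were therefore not searched.

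Shh (ENSMUSG00000002633, chromosome 5, 28456815 to 28467256, minus strand, GRCm38), the ligand of the dental epithelium, ranged from 70.5 to 235 RPKM in Nfic+/- libraries, with a median of 103. In Nfic-/- libraries it ranged from 112 to 179 RPKM, with a median of 151. All 6 Nfic-/- libraries lay above the Nfic+/- median, yet none lay above the highest Nfic+/- library, which was replicate 6. The group means were 117 ± 59.6 and 148 ± 25.3 RPKM (SD, n = 6 each), and the coefficient of variation was 51.0% in the Nfic+/- and 17.1% in the Nfic-/- libraries. The difference of 0.44 in log2(RPKM + 1), with a 95% interval from -0.07 to 0.94, did not pass the test (limma adjusted p = 0.965). Without Nfic+/- replicate 6 it was 0.66.

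Ihh (ENSMUSG00000006538, chromosome 1, 74945315 to 74951672, minus strand), a ligand of cartilage and of gut epithelium, was detected in the intestinal-marker libraries and barely elsewhere. Its level was low enough for single reads to be counted. Nfic+/- replicates 5 to 10 held 4, 8, 0, 76, 84 and 11 reads, and Nfic-/- replicates 5 to 10 held 4, 3, 3, 66, 95 and 7 reads. Libraries 8 and 9 of both genotypes thus had 66 to 95 reads (0.318 to 0.414 RPKM), and the other 8 libraries had 0 to 11 reads (0.00520 to 0.0470 RPKM). The count of 0 in Nfic+/- replicate 7 allows up to 3 reads, or 0.0173 RPKM, by counting error alone. In all 4 of these libraries 12 of the 15 intestinal markers reached 1 RPKM, whereas 13 of them, among them Vil1 and Cdx2, stayed under 0.1 RPKM in each of the other 8. The part of intestinal RNA in the Ihh level was not tested. Of 9 cartilage markers, Comp, Matn1 and Matn3 stayed under 0.1 RPKM in all 12 libraries, while the collagen gene Col2a1 was at 1.80 and 1.83 RPKM in the 2 genotypes. The cartilage list summed to 27.1 to 66.4 RPKM in Nfic+/- and 23.6 to 48.9 RPKM in Nfic-/- libraries, most of it from Matn4, and its part in the Ihh level was not tested. The genotypes differed by -0.0034 in log2(RPKM + 1) (2-sided exact permutation p = 0.942).

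Dhh (ENSMUSG00000023000, chromosome 15, 98891152 to 98898540, minus strand), the ligand of Schwann cells and of endothelium, was present at 0 to 64 reads per library. Nfic+/- replicates 5 to 10 held 14, 27, 12, 64, 62 and 50 reads, and Nfic-/- replicates 5 to 10 held 28, 7, 30, 0, 50 and 38 reads. Nfic-/- replicate 8 was the only library with no Dhh read, which allows up to 3 reads, or 0.0149 RPKM. In that library 11 Schwann cell markers summed to 11.9 RPKM and the endothelial list to 21.7 RPKM, the second lowest of the 12 libraries. The next lowest in Dhh was Nfic-/- replicate 6, where the Schwann list summed to 6.74 RPKM and the endothelial list to 15.3 RPKM, both the lowest of the 12 libraries. The genotypes overlapped (0.183 ± 0.0968 and 0.123 ± 0.0838 RPKM, SD, n = 6 each; difference -0.07 in log2(RPKM + 1), 2-sided exact permutation p = 0.277). Libraries 5 to 7 had 7 to 30 reads in both genotypes.

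**Figure D2:**
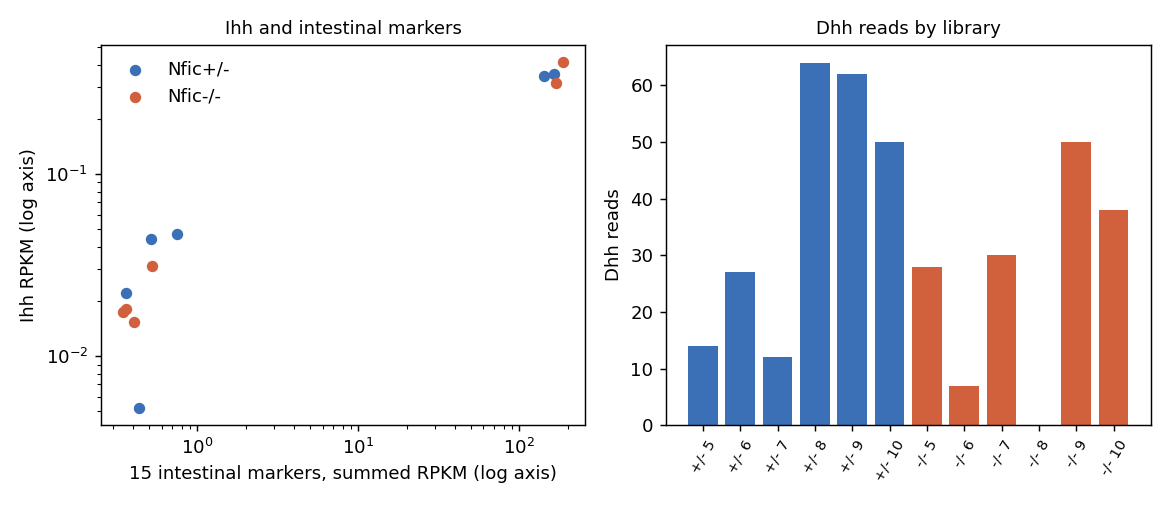
Left, Ihh in RPKM against the summed RPKM of 15 intestinal markers, both on log axes, with 1 point per library; the lowest point is a library with 0 reads drawn at the deposited floor value. Right, Dhh reads in each library, with +/- and -/- for the genotype followed by the library number. The 4 libraries numbered 8 and 9 form the upper right group for Ihh, and Nfic-/- replicate 8 has no Dhh bar.

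Ptch1 (ENSMUSG00000021466, chromosome 13, 63508328 to 63573598, minus strand), the Hedgehog receptor and a target of the pathway, ranged from 31.6 to 68.6 RPKM in Nfic+/- libraries, with a median of 46.0. In Nfic-/- libraries it ranged from 35.2 to 52.8 RPKM, with a median of 44.8. The Nfic-/- values lay wholly within the Nfic+/- range. The difference was -0.06 in log2(RPKM + 1), with a 95% interval from -0.42 to 0.29 (limma adjusted p = 1.0), and it turned to 0.11 without both libraries numbered 6.

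Smo (ENSMUSG00000001761, chromosome 6, 29735503 to 29761365, plus strand), the membrane protein that carries the signal past Ptch1, was the steadiest of the genes above 30 RPKM. It ranged from 31.6 to 54.2 RPKM in Nfic+/- libraries (median 41.2) and from 35.9 to 45.6 RPKM in Nfic-/- libraries (median 40.7). The groups overlapped throughout, with a difference of -0.06 in log2(RPKM + 1) and a 95% interval from -0.31 to 0.19 (limma adjusted p = 1.0). Without both libraries numbered 6 the difference was 0.04. Sufu (ENSMUSG00000025231, chromosome 19, 46396896 to 46488804, plus strand), which holds Gli proteins in the cytoplasm, ranged from 3.30 to 4.87 RPKM in Nfic+/- libraries (median 4.17) and from 3.01 to 4.67 RPKM in Nfic-/- libraries (median 3.74). Of the Nfic-/- libraries, 2 lay below the lowest Nfic+/- library. The difference was -0.10 with a 95% interval from -0.33 to 0.14 (limma adjusted p = 1.0).

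Gli1 (ENSMUSG00000025407, chromosome 10, 127329882 to 127341974, minus strand), the activator that is induced by the pathway, ranged from 12.2 to 25.7 RPKM in Nfic+/- libraries, with a median of 15.8. In Nfic-/- libraries it ranged from 16.2 to 25.1 RPKM, with a median of 22.1. As with Shh, all 6 Nfic-/- libraries lay above the Nfic+/- median and none above the highest Nfic+/- library, which was again replicate 6. The difference was 0.36 in log2(RPKM + 1), a ratio of 1.28 in RPKM + 1, with a 95% interval from -0.0007 to 0.72. It did not pass the test (limma adjusted p = 0.934). In libraries 5 to 7 it was 0.27, as against 0.45 in libraries 8 to 10.

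Gli2 (ENSMUSG00000048402, chromosome 1, 118834132 to 119053619, minus strand), the main activator of the pathway, ranged from 3.76 to 5.41 RPKM in Nfic+/- and from 3.82 to 5.61 RPKM in Nfic-/- libraries. Its difference was 0.03 in log2(RPKM + 1), with a 95% interval from -0.17 to 0.24. Libraries 5 to 7 alone gave 0.16, and libraries 8 to 10 alone gave -0.10. Gli3 (ENSMUSG00000021318, chromosome 13, 15463235 to 15730026, plus strand), the main repressor in the absence of ligand, ranged from 4.18 to 7.41 RPKM in Nfic+/- and from 4.16 to 6.67 RPKM in Nfic-/- libraries. Its difference was -0.04, with a 95% interval from -0.32 to 0.24. Without both libraries numbered 6 it was 0.07, and with library weights it was 0.03. Both genes had a limma adjusted p of 1.0, and the genotypes overlapped in each.

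Of the 9 genes, 7 had a mean of at least 1 RPKM and entered the test across all genes, and 0 of these passed an adjusted p of 0.05 in limma. In the same fit 0% of 12094 genes passed. At an unadjusted p under 0.05 there were 0 of the 7 genes and 5.34% of all genes, with Gli1 at 0.0504 and Shh at 0.0854. Of the 7 genes, 3 stood above 0 and 4 below, with a median of -0.04, against a median of -0.0028 over all genes tested. With library weights in limma, estimated from the scatter of each library's values around the genotype fit, 17 genes passed. Shh (difference 0.59, limma adjusted p = 0.0591) and Gli1 (0.56, limma adjusted p = 0.0610) then remained above an adjusted p of 0.05.

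**Figure D3:**
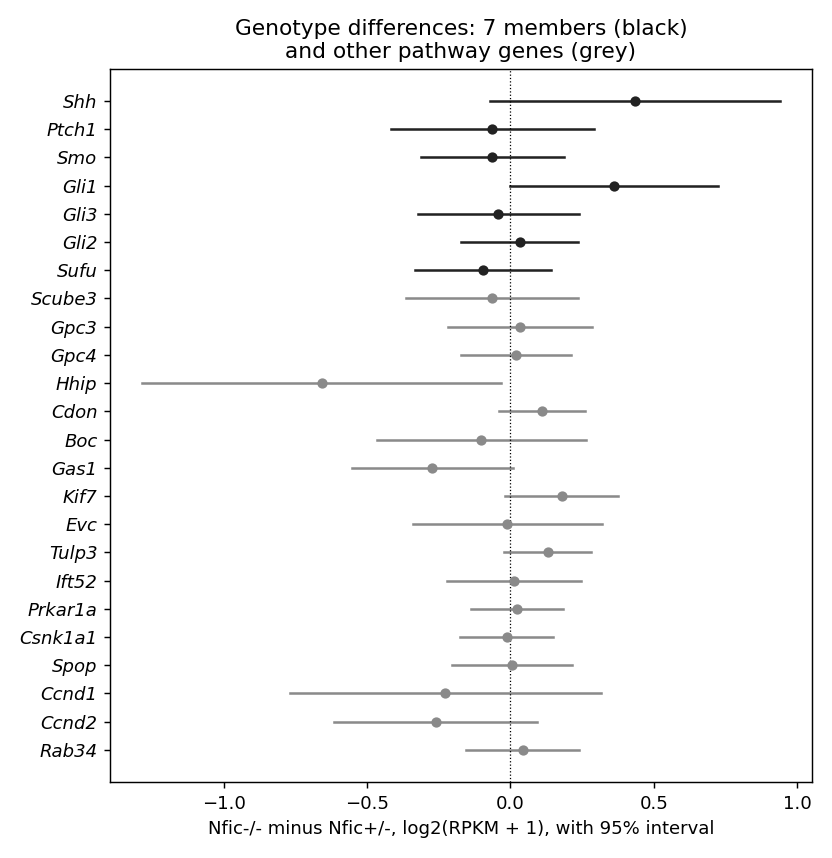
Differences between Nfic-/- and Nfic+/- libraries in log2(RPKM + 1) with 95% intervals from limma, for the 7 tested Hedgehog genes in black and for other pathway genes in grey. Gli1 and Shh lie to the right at 0.36 and 0.44, and Hhip lies to the left at -0.66. The intervals are not adjusted for the number of genes.

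The ratio of Gli1 to Ptch1, both of them transcriptional readouts, was higher on average in the Nfic-/- libraries. The ratio of Gli1 to Ptch1 in RPKM was 0.474, 0.374, 0.407, 0.366, 0.315 and 0.241 in Nfic+/- replicates 5 to 10, and 0.547, 0.581, 0.465, 0.411, 0.371 and 0.569 in Nfic-/- replicates 5 to 10. The means were 0.363 ± 0.0795 and 0.491 ± 0.0883 (SD, n = 6 each). Of the Nfic-/- libraries, 3 lay above the highest Nfic+/- library and 6 lay above the Nfic+/- median. In log2(RPKM + 1), Gli1 minus Ptch1 was higher in Nfic-/- by 0.42 (SE 0.168, 2-sided exact permutation p = 0.0325, or 0.0487 after Benjamini-Hochberg adjustment over 3 such within-library differences). Libraries 5 to 7 alone had a gap of 0.33 (2-sided exact permutation p = 0.2) and libraries 8 to 10 alone 0.52 (p = 0.1, the smallest that 3 against 3 can give). Without libraries 8 and 9 it was 0.54 (2-sided exact permutation p = 0.0571). The unadjusted exact permutation p rose above 0.05, to between 0.0584 and 0.0693, when any of Nfic+/- replicates 9 and 10 or Nfic-/- replicates 5, 6 and 10 was left out. The adjustment over the 3 differences does not cover their choice, which was made with earlier results of these data known. Neither Gli1 nor Ptch1 passed the test across all genes.

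Gli1 was also higher relative to markers of dental mesenchyme in the Nfic-/- libraries. Gli1 minus dental mesenchyme markers, the log2(RPKM + 1) of Gli1 less the mean of 12 markers, was -1.45 ± 0.546 in Nfic+/- and -0.54 ± 0.597 in Nfic-/- libraries (SD, n = 6 each). Of the Nfic-/- libraries 4 lay above the highest Nfic+/- library, and replicates 9 and 10 did not. The gap was 0.92 (SE 0.330, 2-sided exact permutation p = 0.0216, or 0.0487 adjusted over the 3 differences), with 0.98 in libraries 5 to 7 (p = 0.1) and 0.85 in libraries 8 to 10 (p = 0.2). It was 1.06 without libraries 8 and 9 (2-sided exact permutation p = 0.0857). The marker list itself stood lower in the Nfic-/- libraries, with a mean of 5.03 against 5.58 in log2(RPKM + 1), and this accounts for more of the gap than the 0.36 of Gli1. The other 6 tested genes stood higher against these markers as well, by 0.46 for Sufu, 0.49 for Smo and Ptch1, 0.51 for Gli3, 0.59 for Gli2 and 0.99 for Shh. These 6 gaps were not tested.

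For Shh no difference was detected relative to markers of the epithelium that makes it. Its log2(RPKM + 1) minus the mean of 12 epithelial markers was 0.62 ± 0.394 in Nfic+/- and 0.76 ± 0.162 in Nfic-/- libraries (SD, n = 6 each), a gap of 0.14 (SE 0.174, 2-sided exact permutation p = 0.448 before and after adjustment over the 3 differences). The Nfic-/- values lay wholly within the Nfic+/- range, whose ends were replicate 5 at 0.13 and replicate 6 at 1.30. Without Nfic+/- replicate 6 the gap was 0.28 (2-sided exact permutation p = 0.0433). With the basal keratin gene Krt14 in place of the list it was -0.017. Against the epithelial markers Smo, Sufu, Gli2, Gli3 and Ptch1 stood lower in the Nfic-/- libraries, with gaps of -0.36, -0.39, -0.26, -0.33 and -0.36, and the gap for Gli1 was 0.07. These 6 gaps were not tested.

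**Figure D4:**
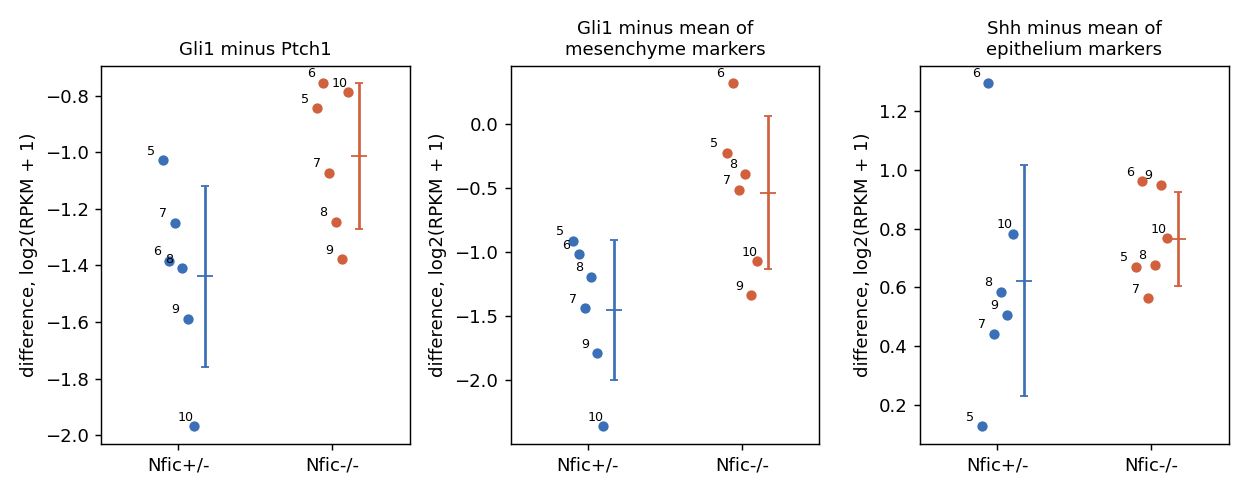
Within-library differences in log2(RPKM + 1) by genotype, with 1 numbered point per library and the mean with SD (n = 6) beside each group. The Nfic-/- libraries lie higher for Gli1 minus Ptch1 and for Gli1 minus the mesenchymal markers, and they lie within the Nfic+/- range for Shh minus the epithelial markers.

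Of 6 gene pairs compared over the 12 libraries, 0 passed after adjustment by either coefficient, and the largest correlation in log2(RPKM + 1) was that of Shh with Gli1 (Pearson r = 0.57, permutation p = 0.0550, adjusted 0.142; Spearman rho = 0.59, permutation p = 0.0464, adjusted 0.195; n = 12). Without the outermost libraries for Shh, Nfic+/- replicates 5 and 6, r was 0.40. Libraries 5 to 7 gave 0.92, whereas libraries 8 to 10 gave 0.16 (n = 6 each). Within the genotypes it was 0.68 in Nfic+/- and -0.66 in Nfic-/- libraries, and the difference between these was not tested. Shh and Ptch1 had r = 0.54 (permutation p = 0.0709, adjusted 0.142; rho = 0.42, permutation p = 0.177, adjusted 0.265), which rested on the same pair of libraries, since it was -0.09 without them. That pair held the highest and the lowest enamel marker sum of the 12 libraries. Libraries 5 to 7 gave 0.74 and libraries 8 to 10 gave -0.034. Within the genotypes it was 0.88 in Nfic+/- and -0.39 in Nfic-/- libraries, again with the difference not tested.

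Gli1 and Ptch1 had r = 0.44 (permutation p = 0.152, adjusted 0.228; rho = 0.51, permutation p = 0.0935, adjusted 0.195; n = 12), and 0.64 without Nfic+/- replicates 9 and 10. The sets gave 0.79 for libraries 5 to 7 and 0.34 for libraries 8 to 10, and the genotypes gave 0.68 for Nfic+/- and 0.20 for Nfic-/-. Gli2 and Gli3 had r = 0.55 (permutation p = 0.0657, adjusted 0.142; rho = 0.50, permutation p = 0.0977, adjusted 0.195), with 0.50 and 0.53 in the 2 sets of libraries, and 0.64 without the libraries numbered 7. Gli1 showed little relation to the factors upstream of it, with r = 0.08 for Gli2 (permutation p = 0.812, adjusted 0.889; rho = 0.14, permutation p = 0.670, adjusted 0.698) and r = 0.04 for Gli3 (permutation p = 0.889, adjusted 0.889; rho = 0.13, permutation p = 0.698, adjusted 0.698). Without Nfic+/- replicates 9 and 10 these were 0.20 and 0.50, and in the 2 sets of libraries they were 0.48 and -0.14 for Gli2 and 0.83 and -0.43 for Gli3.

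**Figure D5:**
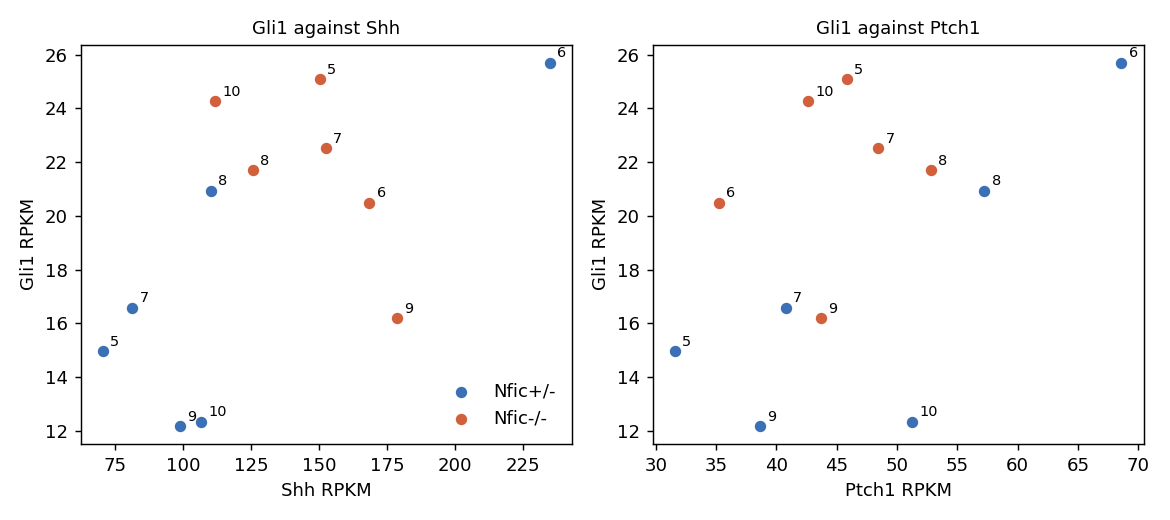
Gli1 in RPKM against Shh (left) and against Ptch1 (right) in RPKM, with 1 point per library and its number beside it. Nfic+/- replicate 6 is the highest library for all 3 genes, and at a given Ptch1 level the Nfic-/- points lie mostly above the Nfic+/- points.

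The genes whose levels over the 12 libraries were most like those of each Hedgehog gene differed from gene to gene. They were ranked by Pearson r of log2(RPKM + 1) among 12094 genes, as a description without a test. For Shh these were Plp2 (0.97), Tmbim1 (0.96) and Best3 (0.96). Ptch1 was closest to Maml3 (0.96), Ppp3ca (0.96) and Zkscan1 (0.95). Smo was close to Tbc1d22b (0.99) and Rqcd1 (0.98), and Sufu was closest to Slc17a5 (0.97), Clock (0.97) and Axl (0.97). Gli3 was closest to Gatad2b (0.98), R3hdm2 (0.97) and Grlf1 (0.96), and Gli2 to Odz2 (0.94), Zmiz1 (0.91) and Sfrp4 (0.88). Gli1 had the loosest neighbours, Tmem66 (0.87), Htr1d (0.85) and Tapt1 (0.83). None of these lists held another Hedgehog gene. The libraries also differed in depth and in marker levels, and the part of these in the coefficients was not tested.

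Other genes of the pathway were taken from lists chosen by known role, and in each list 0 tested genes passed the threshold, as for all genes (0% of 12094). Among proteins that process, release or carry ligand, 7 of 11 were tested, 4 above and 3 below 0 (median 0.02). The most abundant were the glypican gene Gpc3 with a mean of 132 RPKM in Nfic+/- and 135 RPKM in Nfic-/- libraries, the secreted carrier gene Scube3 at 31.7 ± 6.87 and 30.0 ± 4.98 RPKM, and the glypican gene Gpc4 at 24.2 ± 3.12 and 24.5 ± 1.95 RPKM (SD, n = 6 each). All 3 overlapped between the genotypes. In the same list, and chosen after their values were seen, the glypican gene Gpc6 had 4.66 ± 2.69 and 2.15 ± 1.19 RPKM (difference -0.80) and the secreted carrier gene Scube1 had 3.73 ± 2.0 and 2.21 ± 2.63 RPKM (difference -0.74), with limma adjusted p = 0.934 and 0.945.

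Of the receptors and co-receptors, 5 of 6 were tested, 2 above and 3 below 0 (median -0.10). Hhip, which binds and blocks ligand and is also a target, had 5.05 ± 2.40 RPKM in Nfic+/- and 2.83 ± 1.23 RPKM in Nfic-/- libraries (SD, n = 6 each; difference -0.66, limma adjusted p = 0.934). Without Nfic-/- replicate 6 the Hhip difference was -0.43. The co-receptor genes Gas1, Cdon and Boc differed by -0.27, 0.11 and -0.10. Without that library Gas1 was at -0.18 and Boc at 0.021. Of these, Cdon was higher in 3 Nfic-/- libraries than in any Nfic+/- library, and Gas1 was lower in 2.

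Of the listed genes linked to the cilium, where the signal passes from Smo to Gli proteins, 12 of 14 were tested, 6 above and 6 below 0 (median 0.0035). Kif7, a kinesin gene of the ciliary tip, had 14.9 ± 1.32 and 17.1 ± 2.22 RPKM (SD, n = 6 each; difference 0.18, limma adjusted p = 0.945), with 4 Nfic-/- libraries above every Nfic+/- library. Tulp3, which carries receptors into the cilium, differed by 0.13, the intraflagellar transport gene Ift52 by 0.01 and Evc, which couples Smo to the Gli proteins, by -0.01. All 13 kinase and ubiquitin ligase genes of Gli processing were tested, 4 above and 9 below 0 (median -0.01). Its most abundant members were the protein kinase A subunit gene Prkar1a at 57.8 ± 4.86 and 58.8 ± 4.38 RPKM, the Gli-degrading adaptor gene Spop at 36.7 ± 4.06 and 36.9 ± 4.59 RPKM, and the casein kinase gene Csnk1a1 at 28.1 ± 3.05 and 27.7 ± 1.36 RPKM (SD, n = 6 each).

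Of 14 further Hedgehog target genes, Foxl1 had no row in the table and 12 were tested, 2 above and 10 below 0, with a median of -0.26 against -0.0028 over all genes. Among those above 0 was Rab34, a ciliary trafficking gene at 32.8 ± 4.06 and 33.8 ± 3.26 RPKM (SD, n = 6 each). The cyclin genes Ccnd1 and Ccnd2 had 31.0 ± 12.4 and 28.6 ± 5.68 RPKM in Nfic+/- libraries and 25.5 ± 7.84 and 23.9 ± 5.76 RPKM in Nfic-/- libraries. The Ccnd1 difference of -0.23 ranged from -0.38 without Nfic+/- replicate 5 and -0.35 without Nfic-/- replicate 10 to -0.10 without Nfic+/- replicate 6 or 10 and -0.13 without Nfic-/- replicate 6, and it was -0.0014 without both libraries numbered 6. The Ccnd2 difference of -0.26 was -0.14 without Nfic-/- replicate 6. Larger differences in this list, chosen after their values were seen, were those of forkhead genes. In Nfic+/- and Nfic-/- libraries Foxf2 had 14.5 ± 6.37 and 7.78 ± 3.50 RPKM (difference -0.86). Foxd2 had 2.77 ± 1.54 and 1.19 ± 0.931 RPKM (-0.78), and Foxf1a had 26.6 ± 9.02 and 16.9 ± 6.77 RPKM (-0.69). Each had a limma adjusted p of 0.934. Mesenchymal markers also stood lower in the Nfic-/- libraries (a summed 1323 to 3169 RPKM against 2384 to 3830 RPKM). Whether they varied together with this list, and their part in its values, was not tested.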

How the data were processed

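Total RNA from 12 molar samples was made into libraries and sequenced, per the labels. TopHat2 and mm10 are named in the submitters' processing notes, and the sources used here name no counting tool. The table deposited by the authors holds log2 RPKM (-11.1 to 16.7), where linear RPKM had been assumed in the plan; the planned tests were kept on back-transformed values. The log base was checked by adding up value times gene length: base 2 accounts for 0.773 to 0.835 of each library, whereas base e would give 8.23 to 28.4 times too many reads. A gene with no read carries the value of 0.9 reads. Low values then came out as whole reads (100% of the 7082 that lay under 20, from 2677 genes, within 0.02), which gave the depth and the Ihh and Dhh reads. Limits for a count of 0 cover counting error only. GENCODE M21 (GRCm38) held 24987 of the identifiers and lacked 912.

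The scale of all tests was log2(RPKM + 1). RPKM are not counts, so no count test was made. limma 3.58.1 in R 4.3.3 compared the genotypes over the 12094 genes that averaged at least 1 RPKM (variance trend, genotype as the only term, Benjamini-Hochberg adjustment, threshold 0.05). Exact 2-sided permutation over 924 assignments tested single values, and 100000 permutations tested correlations (Python 3.11.15, scipy 1.17.1). Tested on simulated data for this comparison (12094 genes, 200 of them changed), limma called 58.0%, 91.5% and 97.9% of changes of 0.5, 1 and 2 log2, with 5.15% false calls. The simulated noise was independent from gene to gene, whereas sets of marker genes moved together in the real libraries. The shares called therefore do not give the power of the real comparison. The labels do not say how many animals gave the libraries, so p-values measure the spread between these samples, which may be technical.

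The 9 genes, the lists, the motifs and the tests were chosen with earlier results of these data known. Named were the 9 genes, Nfic, Hhip, Boc, Cdon, Gas1, Kif7, Evc, the 3 most abundant genes of each pathway list, and the 3 genes most like each tested Hedgehog gene, leaving out predicted genes. Some genes these rules cover are not reported here. Single marker genes beside Ihh were chosen after their values were seen. Alternatives were a replicate block, other pseudocounts, filters, scalings and variance models, library weights, and libraries left out. Those by sample sheet or without libraries 8 and 9 were added after seeing the data.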

Additional observations from a re-analysis of the deposited data

Results flagged for a closer look

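Shh in Nfic+/- replicate 6, at 235 RPKM, lay apart from the other 5 Nfic+/- libraries, whose highest value was 110 RPKM. The gap to its nearest neighbour was above the 95% limit of Dixon's test for 6 samples, which chance exceeds in about 1 of 20 groups. The search covered the 9 genes and Nfic in each genotype, and also the within-library differences. This was the only gap past the limit, which is no more than that rate gives. Nfic+/- replicate 6 was also the highest of the 12 libraries for Gli1, Ptch1 and Smo. Its enamel marker sum was the lowest, at 36034 RPKM. The highest sum, 142043 RPKM, was that of Nfic+/- replicate 5, the lowest library for Shh, Ptch1 and Smo. Nfic-/- replicate 6 had a sum of 140049 RPKM, with Shh at 168 RPKM. The part of enamel RNA in these levels was not tested.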

How the results depend on the processing

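Numbers 5 to 10 appear in both genotypes, but no label ties them to litters. With deviations taken from the mean of each genotype, libraries of equal number had r = 0.492, 0.0050, 0.310, 0.667, 0.688 and 0.802 (numbers 5 to 10), and 3 of the 6 pairs were mutually closest, so that a pairing is not established. With the replicate block 0 genes passed, as without it, and Shh stayed at 0.44 (limma adjusted p = 0.626) and Gli1 at 0.36 (adjusted p = 0.563). Exact sign flips over the numbers gave p = 0.0312, the smallest possible, for the Nfic level, for Gli1 minus Ptch1 and for Gli1 minus dental mesenchyme markers, and 0.312 for Shh minus dental epithelium markers. The count of genes past the threshold was 0 under all other limma settings and 17 with library weights. With 1 library left out, the difference was 0.31 to 0.66 for Shh, 0.28 to 0.48 for Gli1, -0.17 to 0.048 for Ptch1, -0.14 to 0.0079 for Smo, -0.15 to -0.048 for Sufu, -0.015 to 0.078 for Gli2, -0.12 to 0.034 for Gli3, -0.069 to 0.050 for Ihh and -0.10 to -0.043 for Dhh. It was -0.63 to -0.41 for the Nfic level, 0.32 to 0.51 for Gli1 minus Ptch1, 0.042 to 0.28 for Shh minus dental epithelium markers and 0.73 to 1.08 for Gli1 minus dental mesenchyme markers, where the exact permutation p was 0.0108 to 0.0433. The correlations were 0.47 to 0.67 (Shh and Gli1), 0.29 to 0.71 (Shh and Ptch1), 0.29 to 0.62 (Gli1 and Ptch1), -0.047 to 0.19 (Gli1 and Gli2), -0.13 to 0.32 (Gli1 and Gli3) and 0.42 to 0.69 (Gli2 and Gli3).

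For the subsets without libraries 8 and 9, of libraries 5 to 7, and of libraries 8 to 10, the Nfic level differed by -0.56, -0.57 and -0.47, Gli1 minus Ptch1 by 0.54, 0.33 and 0.52, and Gli1 minus dental mesenchyme markers by 1.06, 0.98 and 0.85. For the 6 values from 3 against 3 libraries the smallest exact permutation p is 0.1, so they could not pass 0.05; the 3 without libraries 8 and 9 (4 against 4) had p = 0.143, 0.0571 and 0.0857. Signs turned as follows, and the cause was not tested. Libraries 8 to 10 gave Ihh 0.0027, Gli2 -0.097, Gpc4 -0.14, Evc 0.013 and correlations of -0.034 (Shh and Ptch1), -0.14 (Gli1 and Gli2) and -0.43 (Gli1 and Gli3). Libraries 5 to 7 gave Dhh 0.011, Gli3 0.020, Scube3 0.15, Gpc3 -0.060, Ift52 -0.046, Prkar1a -0.0056 and Spop -0.037. Leaving out both libraries numbered 6 gave Smo 0.041, Gli3 0.072, Ptch1 0.11, Scube3 0.0077, Boc 0.067, Evc 0.088 and Csnk1a1 0.059. Library weights gave Gli3 0.035, Ptch1 0.062, Scube3 0.051, Gpc4 -0.024 and Csnk1a1 0.042. Without both numbered 5, Gpc3 was -0.0056, Ift52 -0.024 and Prkar1a -0.0085. Without both numbered 7, Gli2 was -0.055, Gpc4 -0.062, Spop -0.010 and Rab34 -0.00098. Without both numbered 8, Scube3 was 0.0088, Evc 0.0054 and Spop -0.0016. Without both numbered 9, Gpc3 was -0.037, Ift52 -0.024 and Rab34 -0.00074, and without both numbered 10, Gli3 was 0.0088 and Spop -0.010. Without libraries 8 and 9, Scube3 was 0.027, Gpc3 -0.069, Ift52 -0.018 and Spop -0.0057. Quantile normalization gave Gpc3 -0.027, Evc 0.033, Prkar1a -0.0095 and Spop -0.018, and median centring gave Evc 0.019 and Csnk1a1 0.016. With Krt14 alone, Shh minus the epithelial level was -0.017. With 1 library left out, Scube3 was -0.14 to 0.0097, Gpc3 -0.023 to 0.095, Gpc4 -0.031 to 0.063, Boc -0.19 to 0.021, Evc -0.10 to 0.067, Ift52 -0.043 to 0.072, Prkar1a -0.0046 to 0.058, Csnk1a1 -0.047 to 0.035 and Spop -0.042 to 0.046. Depth limits Ihh and Dhh, which had 0 to 95 reads a library.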
